A study of Mus musculus with 6 samples.

Results

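Transcripts of 43 mouse genes of peroxisome assembly and peroxisomal metabolism were examined in adipocytes given a short hairpin RNA against Zc3h10 or a scrambled one. The genes were chosen by their function, with the results of this same contrast already known, so every count, fold and adjusted p value below describes these arrays and is no independent evidence about the group. A gene was read from the probe set that the platform annotation gives to it alone and, where it had several, from the one selected on the highest mean log2 value over all arrays. Under this rule 42 of the 43 genes were measured, among 21996 genes on the array. Acot8 was not analysed here, because its probe set also names another gene.

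The cells were C3H10T1/2, a mouse line of mesenchymal origin able to form fat cells under adipogenic medium, and all cultures are labelled as adipocytes at 9 days of differentiation. In 3 biological replicates an adenovirus carried a Zc3h10-specific hairpin under a U6 promoter (Zc3h10 shRNA), and in 3 it carried a scrambled hairpin (scramble). Both groups were exposed to virus for 72 h at a multiplicity of infection of 50, so there was no culture without virus. Each group rests on 1 hairpin construct, and the labels do not place the 72 h within the 9 days. Total RNA was hybridised to Affymetrix Mouse Gene ST arrays, and the values are the deposited linear intensities, given below in units of intensity.

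Peroxisomes are single-membrane organelles that shorten very long and branched fatty acids, break down the hydrogen peroxide this makes, and carry out the opening steps of ether lipid synthesis. Their proteins are made in the cytosol, and peroxins, the products of the Pex genes, insert the membrane proteins and import the folded enzymes. Adipocytes contain many small peroxisomes, and several of their genes are known targets of the peroxisome proliferator-activated receptors.

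The targeted gene was examined before the others. Zc3h10 had 25.2, 30.2 and 22.9 units on Zc3h10 shRNA arrays 1 to 3, against 25.9, 39.0 and 35.3 units on scramble arrays 1 to 3, a log2 difference of −0.34 ± 0.17 (limma, adjusted p = 0.301). The groups overlapped, because scramble array 1 lay between the shRNA arrays, and the exact permutation test (two-sided) had p = 0.2, in a design of 3 against 3 that cannot go under 0.1. Median intensities of the 6 arrays were 15.6 to 16.1 units, no array stood apart, and log2 values correlated at 0.992 to 0.994 within and 0.985 to 0.988 between groups. A gene is said to have passed, fallen or risen where its limma p, adjusted over all probe sets by Benjamini-Hochberg, was under 0.05. As a mark of dim signal, receptor genes of smell and pheromones were used: the top of the middle 95% of the scramble means of 1379 such genes was a log2 value of 4.34, called the receptor level below. The labelled cell type was checked against 12 markers of mature adipocytes, of which 11 were measured. Of these, 10 passed lower and 0 passed higher, and their summed intensity was 10608 to 11519 units on Zc3h10 shRNA arrays against 19659.5 to 21619 units on scramble arrays. Lep, the leptin gene, was under the receptor level in both groups, and no marker was at 0. Of 11 measured markers of mesenchymal progenitors and fibroblasts, 5 passed higher and 1, Pdgfra, passed lower. Their sums were 6461 to 6767 units on Zc3h10 shRNA arrays against 4935 to 5606 units on scramble arrays, with none at 0. Col1a1, the brightest of them, did not pass. Over all genes, 6.60% passed lower and 5.51% passed higher. Of 8 measured markers of bone, cartilage or muscle, 0 passed higher and 1 lower, and of 3 hepatocyte markers none passed. Fewer cells of a type and less RNA per cell cannot be told apart in bulk RNA, and the part of these marker shifts in the results below was not tested.

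Most peroxisome genes were lower in the Zc3h10 shRNA adipocytes. The largest differences were in Abcd2, a membrane transporter of very long-chain acyl-CoA, in Ehhadh, an enzyme of β-oxidation, and in Pex11a, a peroxin of peroxisome growth and division, which were 4.81-fold, 4.05-fold and 3.19-fold lower. Scp2, which encodes a thiolase and a lipid carrier, was 1.98-fold lower, and Cat, which encodes catalase, was 1.85-fold lower. Crot, Agps and Far1 had all 3 shRNA values above all 3 scramble values, and none of these passed the threshold. Gnpat, which acts in ether lipid synthesis as Agps and Far1 do, fell.

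In numbers, 26 of the 42 measured genes passed an adjusted p under 0.05 with lower values in the shRNA cells, where 6.60% of all genes did so, and 0 passed with higher values, where 5.51% of all genes did (limma over all probe sets, Benjamini-Hochberg). At an unadjusted p under 0.05 there were 34, of which all but Far1 were lower, where 5545 of all 21996 genes passed this limit in either direction. The median log2 difference was −0.53 over the 42 genes and 0.01 over all genes. All 3 shRNA values lay under all 3 scramble values for 32 genes (15.2% of all genes), all 3 lay above for 3 genes (16.7% of all genes), and for 7 genes the groups overlapped. All 42 peroxisome genes were above the receptor level in both groups, and among the 11844 genes above it in at least 1 group 11.8% passed lower. That share includes genes above the level in only 1 group, so it does not match the 42 genes in this respect.

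**Figure D1:**
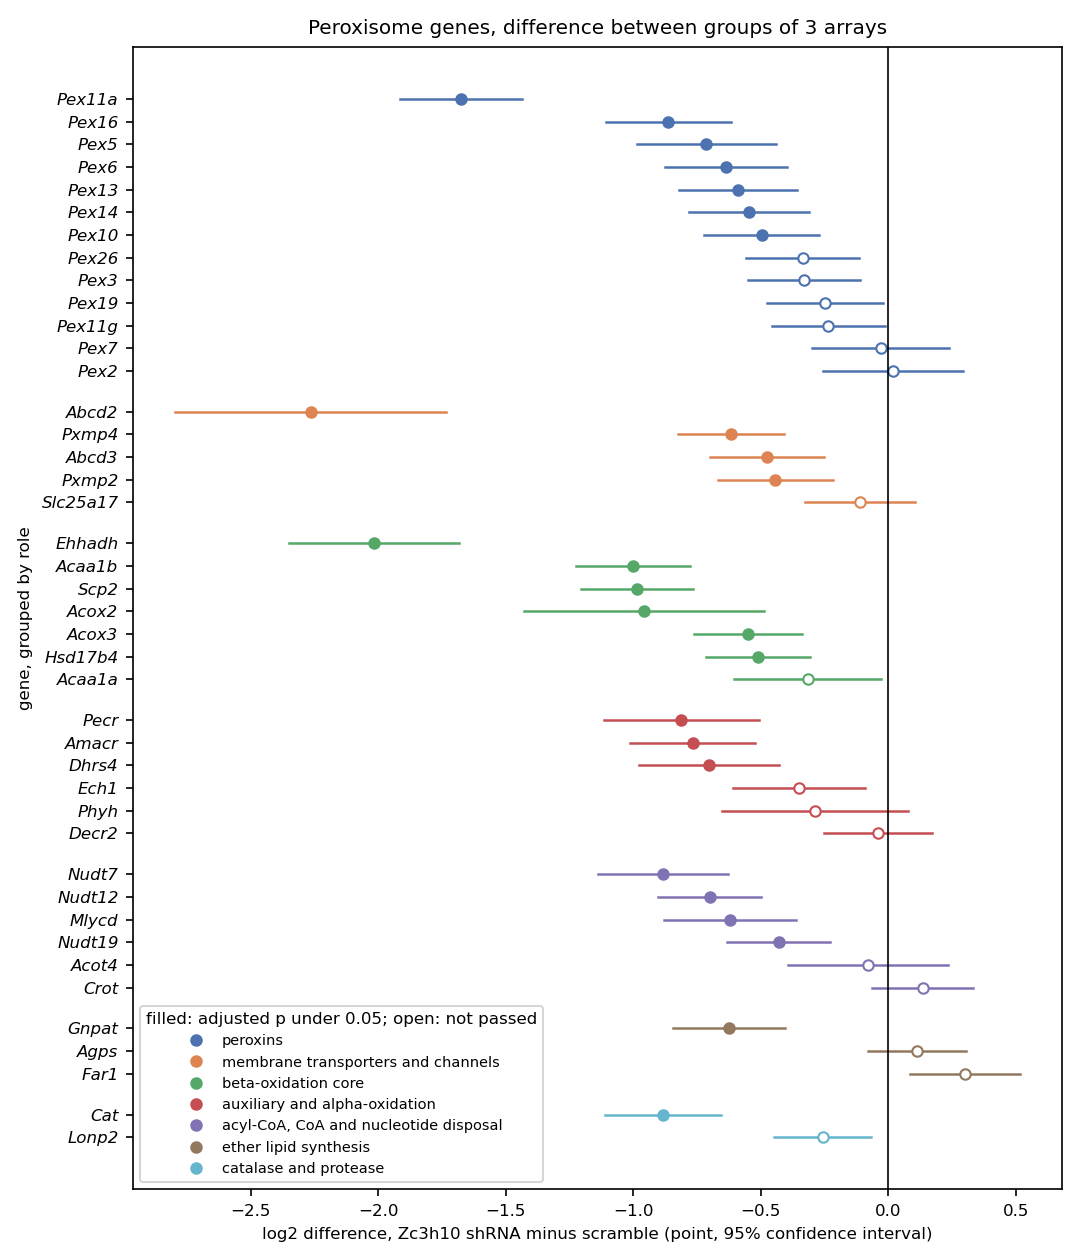
Log2 difference of each of the 42 measured peroxisome genes (Zc3h10 shRNA minus scramble, point with 95% confidence interval of the limma fit), grouped by role, with 3 arrays per group. Filled points passed an adjusted p under 0.05 and open points did not: 26 points are filled, all of them to the left of 0, and Abcd2, Ehhadh and Pex11a lie furthest left.

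The shift was seen on every shRNA array. Relative to the scramble mean of each gene, the median over the 42 genes was −0.50, −0.57 and −0.48 log2 units on shRNA arrays 1 to 3 and −0.06, 0.03 and 0.03 on scramble arrays 1 to 3. Each of the 26 genes that passed was under its scramble mean on all 3 shRNA arrays. These genes were called on the same arrays, so this is no further support for the shift. Replicates were close for most genes: the highest array was at a median of 1.14 times the lowest in the shRNA group and 1.14 times in the scramble group. Scramble array 1 was the lowest of its group for 25 of the 42 genes. The ratio of highest to lowest exceeded 1.5 only for Abcd2 in the shRNA group and only for Acox2 in the scramble group.

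**Figure D2:**
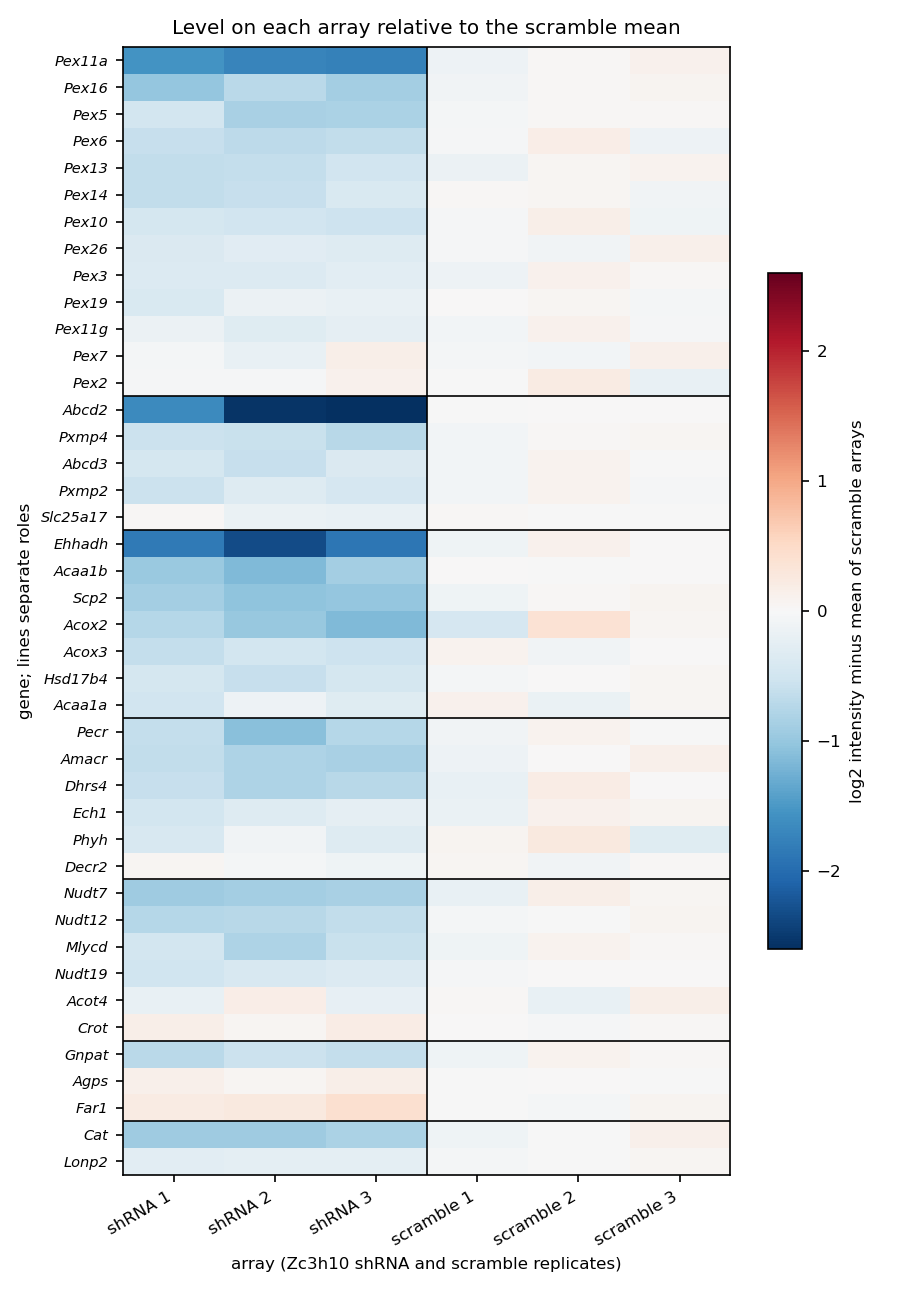
Log2 intensity of each peroxisome gene on each of the 6 arrays minus the mean of the 3 scramble arrays, with shRNA arrays on the left, scramble arrays on the right and lines between roles. The shRNA columns are blue for most genes, deepest for Abcd2 on shRNA arrays 2 and 3, and pale red for Far1, Agps and Crot.

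Promoter sequences were taken from RefSeq (GRCm38.p6), which held 250 bases before to 50 bases after the start for 35 of the 42 measured genes. They were searched on both strands for 3 motifs. The first was DR1, the element of peroxisome proliferator-activated and retinoid X receptors, which is the unit AGGTCA repeated in the same direction with 1 base between, with at most 2 mismatches allowed over its 12 fixed bases. It was found for 3 of the 35 genes (8.57%), Cat, Acox2 and Acot4, against 4.40% of 27025 genes in the table. The others were CGCATGCG, from the site of nuclear respiratory factor 1, found exactly for Scp2 and Nudt7 (5.71%, against 2.07% of genes), and TCAAGGTCA, the element of oestrogen-related receptors, which shares its last bases with the DR1 unit and was found for 0 of the 35 (against 0.466% of genes). A match is a run of letters and not a measured site, and these shares were not tested.

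The promoters of the 3 genes with a DR1 match are given, with that of Scp2 as the example of CGCATGCG, and that of Pex11a because it is the peroxin with the largest difference and holds no match. Capitals mark the match, with its middle base for DR1, and each sequence runs 5′ to 3′ on the strand of its gene. Cat, at chr2:103485104-103485403 on the minus strand, has the match at positions −204 to −192 from the start. Acox2, at chr14:8258790-8259089 on the minus strand, has it at positions 10 to 22. In Acot4, at chr12:84038129-84038428 on the plus strand, the match reads on the opposite strand at positions −13 to −1. Scp2, at chr4:108118498-108118797 on the minus strand, has CGCATGCG at positions −67 to −60. Pex11a lies at chr7:79743082-79743381 on the minus strand.
Cat: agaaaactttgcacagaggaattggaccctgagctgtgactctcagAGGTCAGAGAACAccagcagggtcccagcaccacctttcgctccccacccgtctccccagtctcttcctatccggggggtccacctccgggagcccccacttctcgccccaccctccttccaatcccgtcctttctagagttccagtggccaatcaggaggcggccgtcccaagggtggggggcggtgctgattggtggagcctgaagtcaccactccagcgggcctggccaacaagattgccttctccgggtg
Acox2: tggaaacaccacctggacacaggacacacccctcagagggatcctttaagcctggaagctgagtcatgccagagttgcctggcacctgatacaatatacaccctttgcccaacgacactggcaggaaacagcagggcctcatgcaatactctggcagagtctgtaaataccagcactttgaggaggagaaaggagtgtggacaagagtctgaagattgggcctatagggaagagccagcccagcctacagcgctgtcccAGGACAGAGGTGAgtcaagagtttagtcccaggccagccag
Acot4: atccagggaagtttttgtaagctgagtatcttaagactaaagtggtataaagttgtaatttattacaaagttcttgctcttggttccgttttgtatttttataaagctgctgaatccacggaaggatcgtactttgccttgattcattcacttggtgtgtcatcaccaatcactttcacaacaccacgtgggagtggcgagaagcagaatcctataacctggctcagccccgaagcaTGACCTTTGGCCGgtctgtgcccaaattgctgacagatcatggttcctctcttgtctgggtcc
Scp2: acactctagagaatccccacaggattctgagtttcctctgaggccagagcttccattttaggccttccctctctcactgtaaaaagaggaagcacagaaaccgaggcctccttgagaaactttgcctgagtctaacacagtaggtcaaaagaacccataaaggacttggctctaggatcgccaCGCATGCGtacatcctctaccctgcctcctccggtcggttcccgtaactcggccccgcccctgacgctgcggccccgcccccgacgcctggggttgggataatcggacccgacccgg
Pex11a: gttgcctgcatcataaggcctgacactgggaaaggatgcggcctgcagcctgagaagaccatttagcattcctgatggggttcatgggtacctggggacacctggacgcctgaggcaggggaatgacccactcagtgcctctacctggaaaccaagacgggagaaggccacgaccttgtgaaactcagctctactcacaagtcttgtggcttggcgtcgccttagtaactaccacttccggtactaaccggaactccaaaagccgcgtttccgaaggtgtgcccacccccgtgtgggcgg
Of the 3 genes with a DR1 match, Cat and Acox2 fell and Acot4 did not pass, as given below.

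Among the 13 peroxins, 7 fell, where 6.60% of all genes did, 0 rose, where 5.51% did, and 6 did not pass. Their median log2 difference was −0.50, and 4 passed when limma's moderated statistic was replaced by an ordinary t. The membrane of a peroxisome is built with Pex3, Pex16 and Pex19, and of these Pex16 fell. Pex16, which recruits other membrane proteins, had 66.5, 82.5 and 72.3 units on Zc3h10 shRNA arrays 1 to 3, against 126, 136 and 139 units on scramble arrays 1 to 3. The groups were far apart, 1.82-fold lower with the hairpin, which is −0.86 ± 0.11 on the log2 scale (limma, adjusted p = 0.00238). Pex3, the membrane anchor on which Pex19 docks, had 407, 406 and 429 units with the Zc3h10 hairpin and 476, 559 and 530.1 units with scramble. Pex19, the carrier of newly made membrane proteins, had 364, 431 and 418 units with the Zc3h10 hairpin and 482, 496 and 459.9 units with scramble. For both genes the shRNA arrays all lay under the scramble arrays, by smaller margins, and the log2 differences of −0.33 ± 0.095 for Pex3 and −0.25 ± 0.098 for Pex19 did not pass (limma, adjusted p = 0.0712 and 0.187). Pex3 passed with either filter on dim probe sets, the intensity trend in the prior or the offset of 32 before log2 (limma, adjusted p = 0.0107 to 0.0484).

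Matrix enzymes are brought in by the receptors Pex5 and Pex7. Pex5, which binds the C-terminal targeting signal that most matrix enzymes carry, had 122, 94.4 and 96.1 units on Zc3h10 shRNA arrays 1 to 3, against 163, 173 and 173 units on scramble arrays 1 to 3. It fell by 1.64-fold (limma, log2 difference −0.71 ± 0.12, adjusted p = 0.00797), and shRNA array 1 was the highest of its group. Pex7, which binds the N-terminal signal used by a few enzymes, had 51.2, 46.7 and 59.3 units with the Zc3h10 hairpin and 51.1, 50.8 and 58.3 units with scramble. The groups overlapped, and the log2 difference was −0.03 ± 0.12 with a 95% confidence interval of −0.30 to 0.24. Pex14, to which loaded Pex5 docks, had 118, 121 and 141 units with the Zc3h10 hairpin and 189, 191 and 174 units with scramble, a log2 difference of −0.55 ± 0.10 with no overlap. Its call was lost without scramble array 2 or shRNA array 2 (limma, largest adjusted p = 0.0581). Its docking partner Pex13 averaged 81.9 ± 4.23 units on the Zc3h10 shRNA arrays and 123 ± 10.8 units on the scramble arrays (SD, n = 3 each) and fell, with a log2 difference of −0.59 ± 0.10. The difference between Pex5 and Pex7 was not tested.

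After delivery, Pex5 is marked with ubiquitin by the ring-finger peroxins and pulled back to the cytosol. Pex2, a ring-finger subunit, had 47.8, 48.2 and 52.9 units with the Zc3h10 hairpin and 48.5, 56.4 and 42.8 units with scramble. All shRNA values lay within the scramble range, and the 95% confidence interval of its log2 difference was −0.25 to 0.29. Pex10, another subunit of the same ligase, averaged 44.3 ± 1.35 units on the Zc3h10 shRNA arrays and 62.7 ± 5.88 units on the scramble arrays (SD, n = 3 each) and fell, with a log2 difference of −0.50 ± 0.098. This call was lost without any 1 of scramble array 2 and shRNA arrays 2 and 3 (limma, largest adjusted p = 0.0679). Pex6, an ATPase that extracts the receptor, fell as well and averaged 143 ± 4.18 units on the Zc3h10 shRNA arrays and 223 ± 24.5 units on the scramble arrays (SD, n = 3 each). Pex26, the membrane anchor of that ATPase, averaged 46.0 ± 1.33 units on the Zc3h10 shRNA arrays and 58.2 ± 5.04 units on the scramble arrays (SD, n = 3 each), a log2 difference of −0.34 ± 0.096 that did not pass (limma, adjusted p = 0.0693) but did with either filter on dim probe sets or the offset (limma, adjusted p = 0.0234 to 0.0473).

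Peroxisome elongation and division were represented by Pex11a and Pex11g. Pex11a, whose product elongates the membrane when peroxisomes multiply, had 50.2, 44.8 and 43.5 units on Zc3h10 shRNA arrays 1 to 3, against 134, 149 and 158 units on scramble arrays 1 to 3. This was the largest difference of any peroxin, at −1.67 ± 0.10 on the log2 scale, or 3.19-fold lower (limma, adjusted p = 0.000602). The lowest scramble array was far above the highest shRNA array. Pex11g averaged 53.3 ± 3.03 units on the Zc3h10 shRNA arrays and 62.8 ± 4.48 units on the scramble arrays (SD, n = 3 each), and its log2 difference of −0.24 ± 0.096 did not pass. In the RefSeq gene table a neighbour of Pex11a is Plin1, a lipid droplet coat gene, and in mouse both are known to share a receptor element that lies between them. Plin1, looked up after the value of Pex11a was seen, averaged 378 ± 10.1 units on the Zc3h10 shRNA arrays and 844 ± 36.2 units on the scramble arrays (SD, n = 3 each). Wdr93, on the other side of Pex11a, had a log2 difference of −0.42 ± 0.19 and did not pass.

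Of 5 membrane transporters and channels, 4 fell, where 6.60% of all genes did. Without scramble array 2, without scramble array 3 or with an ordinary t statistic, 2 of the 5 fell. Abcd2, which passes very long-chain acyl-CoA into the peroxisome, had 132, 71.3 and 69.0 units on Zc3h10 shRNA arrays 1 to 3, against 412, 417 and 420.1 units on scramble arrays 1 to 3. The scramble arrays were nearly equal, while shRNA array 1 was 1.92 times shRNA array 3, the widest ratio within a group of any of the 42 genes. The log2 difference was −2.27 ± 0.23 (limma, adjusted p = 0.00117), and the fold of 4.81 was the largest of all 42 genes. Abcd3, a related transporter of branched and dicarboxylic acyl-CoA and a common marker of the peroxisomal membrane, had 424, 383 and 443 units with the Zc3h10 hairpin and 549, 613 and 574 units with scramble. Its difference was smaller, at −0.48 ± 0.097, again without overlap, and did not pass without any 1 of scramble arrays 2 and 3 and shRNA array 2 (limma, largest adjusted p = 0.0772).

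Pxmp4, an integral protein of the peroxisomal membrane, had 1049, 1028 and 939 units with the Zc3h10 hairpin and 1472, 1562 and 1586 units with scramble. Every shRNA array was lower, and the log2 difference was −0.62 ± 0.090. Pxmp2, which forms a channel for small metabolites, averaged 79.1 ± 6.22 units on the Zc3h10 shRNA arrays and 107 ± 6.08 units on the scramble arrays (SD, n = 3 each) and fell, with a log2 difference of −0.44 ± 0.098. This call held without shRNA array 2 but was lost without any 1 of the other arrays (limma, largest adjusted p = 0.101). Slc25a17, a carrier for coenzyme A and nucleotides, had 669, 587 and 576 units with the Zc3h10 hairpin and 674, 652 and 649.8 units with scramble. Here shRNA array 1 lay within the scramble values, and the 95% confidence interval of the log2 difference was −0.33 to 0.10.

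The core enzymes of peroxisomal β-oxidation fell almost throughout, with 6 of 7 passing lower, where 6.60% of all genes did. Their median log2 difference was −0.96. Oxidation opens with the acyl-CoA oxidases, of which Acox2 and Acox3 act on branched chains. Acox2 averaged 24.2 ± 3.53 units on the Zc3h10 shRNA arrays and 47.9 ± 13.1 units on the scramble arrays (SD, n = 3 each), with a wide scramble spread, and its log2 difference was −0.96 ± 0.20. Acox3 averaged 66.8 ± 3.20 units on the Zc3h10 shRNA arrays and 97.9 ± 6.16 units on the scramble arrays (SD, n = 3 each) and fell, with a log2 difference of −0.55 ± 0.092. The call of Acox2 was lost without any 1 of scramble arrays 2 and 3 and shRNA arrays 2 and 3 (limma, largest adjusted p = 0.0882). It was also lost with a replicate block (limma, adjusted p = 0.0527) and with an ordinary t statistic (ordinary t, adjusted p = 0.154).

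Hydration and dehydrogenation are done by a pair of bifunctional enzymes. Ehhadh, the L-specific one, which also handles dicarboxylic acids, had 50.7, 35.9 and 49.1 units on Zc3h10 shRNA arrays 1 to 3, against 168, 195 and 182 units on scramble arrays 1 to 3. The groups lay far apart, with a log2 difference of −2.02 ± 0.14 (limma, adjusted p = 0.000658), or 24.7% of the scramble level. Hsd17b4, the D-specific one, which is needed for very long and branched chains, had 926, 839 and 925 units on Zc3h10 shRNA arrays 1 to 3, against 1229, 1285 and 1315 units on scramble arrays 1 to 3. It fell too, with a smaller difference of −0.51 ± 0.089 on the log2 scale (limma, adjusted p = 0.00966), which is 70.2% of the scramble level.

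Thiolases make the final cut. Acaa1b had 50.4, 44.2 and 53.0 units on Zc3h10 shRNA arrays 1 to 3, against 98.4, 97.3 and 99.2 units on scramble arrays 1 to 3, and its close paralog Acaa1a had 52.1, 66.4 and 58.4 units with the Zc3h10 hairpin and 79.3, 64.6 and 76.1 units with scramble. Acaa1b was at 49.9% of the scramble level (95% confidence interval of the log2 difference −1.23 to −0.78) with nearly equal scramble arrays, whereas Acaa1a overlapped, since shRNA array 2 was above scramble array 2, and its difference of −0.32 ± 0.12 did not pass. Transcripts of such paralogs can bind each other's probes, so the split between them is uncertain. Scp2, which encodes both a thiolase for branched chains and a sterol carrier, had 1356, 1212 and 1254 units on Zc3h10 shRNA arrays 1 to 3, against 2333, 2580.4 and 2650.0 units on scramble arrays 1 to 3. Its log2 difference was −0.98 ± 0.095 (limma, adjusted p = 0.00103), and no array overlapped.

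**Figure D3:**
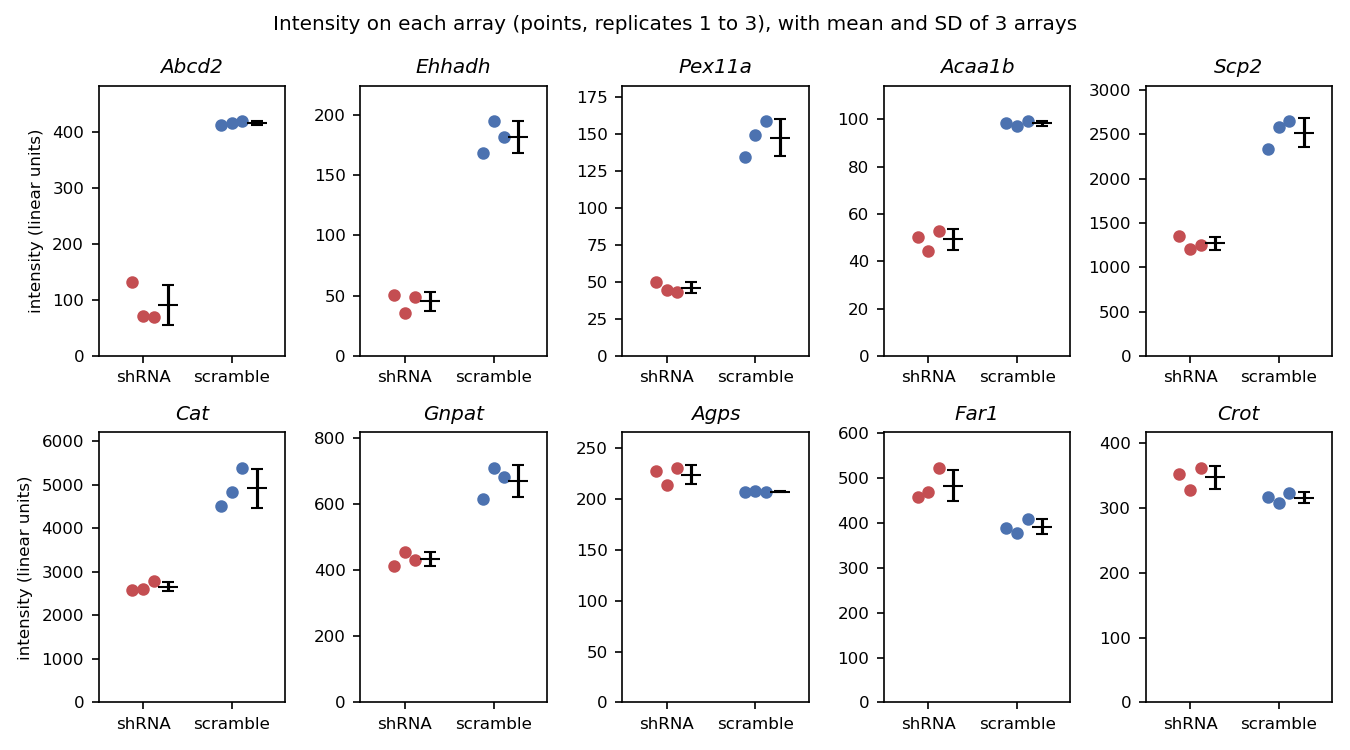
Linear intensity of 10 peroxisome genes on each array (points, replicates 1 to 3 from left to right, Zc3h10 shRNA on the left and scramble on the right), with the mean and SD of 3 arrays as bars and each axis starting at 0. Abcd2, Ehhadh, Pex11a, Acaa1b, Scp2, Cat and Gnpat are lower on all shRNA arrays, while Agps, Far1 and Crot are slightly higher on all of them and did not pass.

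Of 6 genes of auxiliary steps and α-oxidation, 3 fell, where 6.60% of all genes did, and 1 of the 6 fell with an ordinary t statistic. Amacr, a racemase that turns branched acyl-CoA into the form the oxidases accept, had 149, 134 and 129.8 units with the Zc3h10 hairpin and 212, 234 and 257 units with scramble. Pecr, a reductase of trans-2-enoyl-CoA, had 40.5, 29.3 and 36.9 units with the Zc3h10 hairpin and 58.3, 66.0 and 61.4 units with scramble. Both were lower on every shRNA array, with log2 differences of −0.77 ± 0.11 for Amacr and −0.81 ± 0.13 for Pecr. Dhrs4, a carbonyl and retinal reductase, averaged 284 ± 19.2 units on the Zc3h10 shRNA arrays and 464 ± 62.3 units on the scramble arrays (SD, n = 3 each) and also fell, with a log2 difference of −0.70 ± 0.12.

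The other three did not pass. Phyh, the hydroxylase that starts α-oxidation of phytanic acid, had 46.5, 58.3 and 49.4 units with the Zc3h10 hairpin and 65.3, 74.2 and 50.1 units with scramble. The groups overlapped, since scramble array 3 was among the shRNA values, and the 95% confidence interval of the log2 difference was −0.65 to 0.08. Decr2, a reductase for polyunsaturated chains, had 248, 234 and 222 units with the Zc3h10 hairpin and 249.7, 227 and 248 units with scramble. Its groups overlapped too, with an interval of −0.25 to 0.17. Ech1, an isomerase of peroxisomes and mitochondria, averaged 1030.4 ± 89.7 units on the Zc3h10 shRNA arrays and 1315 ± 128 units on the scramble arrays (SD, n = 3 each), a log2 difference of −0.35 ± 0.11 that did not pass (limma, adjusted p = 0.1). It passed with the trend (limma, adjusted p = 0.0181) or without probe sets under the median (limma, adjusted p = 0.0415).

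Products leave the peroxisome as carnitine esters or free acids, and coenzyme A is cut by nudix hydrolases. Of 6 measured genes of these steps, 4 fell, where 6.60% of all genes did, and 2 of the 6 fell without scramble array 2. Nudt7, a hydrolase of coenzyme A and its esters, had 44.1, 45.6 and 47.0 units with the Zc3h10 hairpin and 73.1, 93.4 and 87.0 units with scramble. Nudt12, which cuts NADH and related nucleotides, had 69.7, 71.5 and 75.4 units with the Zc3h10 hairpin and 113, 116 and 123 units with scramble. Every shRNA array was lower in both, with log2 differences of −0.88 ± 0.11 for Nudt7 and −0.70 ± 0.087 for Nudt12. Nudt19, a further coenzyme A hydrolase, averaged 55.4 ± 3.23 units on the Zc3h10 shRNA arrays and 74.6 ± 1.11 units on the scramble arrays (SD, n = 3 each). Mlycd, a decarboxylase of malonyl-CoA found in peroxisomes, mitochondria and cytosol, averaged 52.2 ± 5.88 units on the Zc3h10 shRNA arrays and 80.2 ± 5.54 units on the scramble arrays (SD, n = 3 each). The call of Nudt19 was lost without any 1 of scramble arrays 2 and 3 and shRNA arrays 1 and 2 (limma, largest adjusted p = 0.072), and that of Mlycd without scramble array 2 (limma, adjusted p = 0.0526).

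Crot, which links medium-chain products to carnitine, did not pass and had 352, 328 and 362 units on Zc3h10 shRNA arrays 1 to 3, against 316, 308 and 324 units on scramble arrays 1 to 3. All shRNA arrays were higher by a small margin, and the log2 difference of 0.13 ± 0.087 had a 95% confidence interval of −0.06 to 0.33. Acot4, a thioesterase of succinyl-CoA and other dicarboxylic esters, was dim and had 19.0, 24.5 and 19.0 units with the Zc3h10 hairpin and 22.4, 19.2 and 24.3 units with scramble. The groups overlapped, with an interval of −0.40 to 0.23. A dimmer probe set of Acot4 averaged 8.84 units on the Zc3h10 shRNA arrays and 7.75 units on the scramble arrays, under the receptor level, and Acot4 has close paralogs.

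Ether lipid synthesis takes 3 of the genes, of which 1 fell, where 6.60% of all genes did, and 2 did not pass. Gnpat, the acyltransferase of the opening step, had 413, 457 and 432 units on Zc3h10 shRNA arrays 1 to 3, against 616, 711 and 682 units on scramble arrays 1 to 3. It fell by 1.54-fold (limma, log2 difference −0.62 ± 0.096, adjusted p = 0.00568). Agps, the synthase that makes the ether bond in the next step, had 228, 213 and 230.5 units on Zc3h10 shRNA arrays 1 to 3, against 207, 208 and 207 units on scramble arrays 1 to 3. Its shRNA values were all slightly higher, with a log2 difference of 0.11 ± 0.084 and a 95% confidence interval of −0.08 to 0.30. Far1, the reductase that supplies the fatty alcohol, had 456, 469 and 523 units on Zc3h10 shRNA arrays 1 to 3, against 389, 377 and 409 units on scramble arrays 1 to 3. Its shRNA values were all higher as well, by 0.30 ± 0.094 on the log2 scale, and it did not pass (limma, adjusted p = 0.0939), although it passed with quantile scaling (limma, adjusted p = 0.0475), an intensity trend in the prior, an offset of 32 before log2, or probe sets under the median left out. It did not pass with the milder filter, which left out fewer dim probe sets (limma, adjusted p = 0.0639). Differences between these 3 genes were not tested.

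Catalase, which breaks down hydrogen peroxide and is a standard marker of the peroxisomal matrix, had 2588, 2595 and 2782 units on Zc3h10 shRNA arrays 1 to 3, against 4512, 4833 and 5386 units on scramble arrays 1 to 3. The 3 shRNA arrays were close together and all well under scramble, a log2 difference of −0.88 ± 0.099 or 54.2% of the scramble level (limma, adjusted p = 0.0016). Lonp2, a protease of the matrix, had 500.4, 514 and 514 units on Zc3h10 shRNA arrays 1 to 3, against 591, 604 and 632 units on scramble arrays 1 to 3. Its groups did not overlap either, but the log2 difference of −0.26 ± 0.083 did not pass (limma, adjusted p = 0.104), though it passed with the ordinary t statistic, the trend, the offset or probe sets under the median left out, and not with the milder filter (limma, adjusted p = 0.0671).

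Other peroxisomal genes were taken from a list of 60 by function, of which 49 were measured and 11 were not analysed here. Of the 49, 16 passed lower (32.7%, where 6.60% of all genes did) and 0 passed higher (5.51% of all genes), with a median log2 difference of −0.18. Many were dim: the 30 above the receptor level in at least 1 group held all 16 of these (53.3%, against 11.8% of all genes above it), and their median was −0.37. A gene could enter this set through its higher group alone. Ddo, which fell, did so, with a mean log2 of 3.85 with the Zc3h10 hairpin and 4.37 with scramble. The set thus depends on the contrast itself, and its share and median are no further support. Of the 49 genes, the 6 with the smallest p values all fell. Ephx2, a hydrolase of fatty acid epoxides, averaged 177 ± 23.6 units on the Zc3h10 shRNA arrays and 606 ± 28.3 units on the scramble arrays (SD, n = 3 each), a log2 difference of −1.79 ± 0.12. Tysnd1, the protease that trims imported β-oxidation enzymes, averaged 202 ± 14.1 units on the Zc3h10 shRNA arrays and 466 ± 55.6 units on the scramble arrays (SD, n = 3 each).

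Log2 differences of the next ones were −1.11 ± 0.088 for Mtarc2, an amidoxime reductase, −1.10 ± 0.13 for Pmvk, of mevalonate metabolism, −0.85 ± 0.093 for Tmem135 and −0.68 ± 0.10 for Acad11, an acyl-CoA dehydrogenase. Far2, an isozyme of Far1, averaged 70.7 ± 6.01 units on the Zc3h10 shRNA arrays and 125 ± 27.9 units on the scramble arrays (SD, n = 3 each) and fell, with a log2 difference of −0.81 ± 0.16. Crat, a carnitine acyltransferase for short chains, averaged 426 ± 41.7 units on the Zc3h10 shRNA arrays and 705 ± 101 units on the scramble arrays (SD, n = 3 each) and fell, with a log2 difference of −0.72 ± 0.13. Both were named after their values were seen. The call of Far2 was lost without any 1 of scramble array 3 and shRNA arrays 1 and 3 (limma, largest adjusted p = 0.0595), and that of Crat without scramble array 2 or 3 (limma, largest adjusted p = 0.0553). Genes of the fission machinery shared with mitochondria, named after their values were seen, did not pass, with log2 differences of −0.03 for Mff, −0.03 for Dnm1l and 0.19 for Fis1. All 3 shRNA values lay above all 3 scramble values for 4 of the 49 genes (16.7% of all genes) and under them for 23 (15.2% of all genes). The 4 were Fis1, Pipox (0.34 ± 0.14), Atad1 (0.21 ± 0.085) and Mpv17l (0.18 ± 0.096), and none of them passed.

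**Figure D4:**
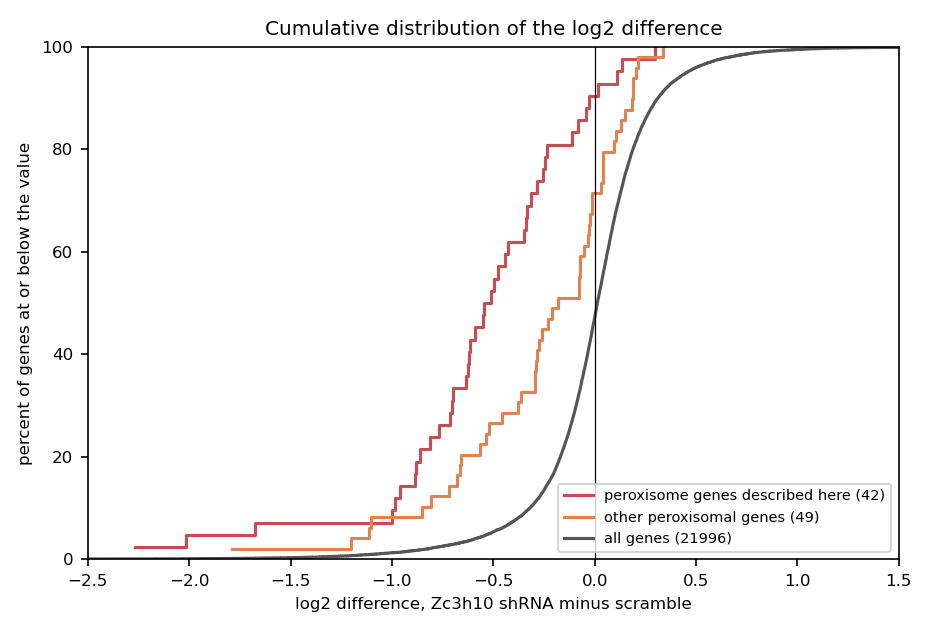
Cumulative percent of genes against the log2 difference (Zc3h10 shRNA minus scramble) for the 42 measured peroxisome genes, 49 other peroxisomal genes and 21996 genes in all. The curve of the 42 genes lies furthest left, with medians of −0.53, −0.18 and 0.01 in that order.

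Of 13 regulators of peroxisomal genes, 4 passed lower (30.8%, where 6.60% of all genes did) and 0 passed higher (5.51% of all genes). Ppara, the receptor named for peroxisome proliferation, averaged 34.0 ± 0.57 units on the Zc3h10 shRNA arrays and 53.0 ± 5.31 units on the scramble arrays (SD, n = 3 each), a log2 difference of −0.64 ± 0.10. Its partner Rxra had a log2 difference of −0.36 ± 0.085, the coactivator Ppargc1b −0.74 ± 0.16, and the sterol receptor Nr1h3 −0.54 ± 0.14. The call of Rxra was lost without any 1 of the 6 arrays (limma, largest adjusted p = 0.114), that of Ppargc1b without any 1 but replicate 1 of either group (limma, largest adjusted p = 0.0936), and that of Nr1h3 without any 1 but scramble array 2 (limma, largest adjusted p = 0.14), while Ppara passed in all of these fits. Ppard was at −0.08, with a 95% confidence interval of −0.29 to 0.13, and did not pass. Pparg, the receptor that drives fat cell formation, was counted among the adipocyte markers and is named after its value was seen. It averaged 616 ± 54.5 units on the Zc3h10 shRNA arrays and 1197 ± 132 units on the scramble arrays (SD, n = 3 each) and fell, with a log2 difference of −0.96 ± 0.12 (limma, adjusted p = 0.00222).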

How the data were processed

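The authors deposited linear intensity values per probe set for 6 arrays. They were made with Affymetrix Expression Console and Partek 6.6, per the submitters' processing notes. The sources used here do not give the background correction, summarisation or scaling. Biological replicates are as labelled, and the number of arrays limits the precision.

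The deposited intensities were taken to log2 with no pseudocount and no further scaling. All 33079 probe sets were fitted in limma 3.58.1 (R 4.3.3; 4 residual and 4.00 prior degrees of freedom), and p values were adjusted over all of them (Benjamini-Hochberg). The fit was tested on simulated data with independent noise, in which 200 probe sets at or above the median level were changed. Changes in probe sets under the median were not covered. The platform annotation gave 1 symbol to 23043 probe sets, several to 1740 and none to 8296, and named 21996 genes. No symbol needed updating, and 169 had no RefSeq match.

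Peroxisome genes, gene lists and markers were chosen with earlier results of these data known. Every array value is given for the 2 genes of each role with the largest difference, the one with the smallest, and a fixed set. Of other peroxisomal genes, up to 6 with the smallest p were named, and of regulators up to 4 with values. Protein targeting signals were not analysed here. Alternatives were other scalings, filters, priors and probe set rules, a replicate block, and leaving out each array.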

Additional observations from a re-analysis of the deposited data

How the results depend on the processing

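Of the 26 peroxisome genes that passed lower, 0 reversed in any of 16 alternatives, 19 passed in all 6 fits that left out 1 array, and 16 passed in every alternative that tested them. The ordinary t statistic, the trend, the filters and the replicate block leave the log2 difference as it was, so they could not reverse a sign. The mean over probe sets could not either, because each of these genes had 1 probe set. The count was 19 to 25 without 1 array, 18 with an ordinary t statistic and 24 to 30 otherwise. The count higher was 1 (Far1) instead of 0 with quantile scaling, an intensity trend in the prior, an offset of 32 before log2, or without probe sets under the median. The median over the 42 genes was −0.43 with the offset, where low values are compressed by construction. Other peroxisomal genes numbered 10 lower with the ordinary t statistic instead of 16, and 1 higher with the trend or the offset. The count of all probe sets changed was 3238, and it was 1972 with the ordinary t statistic and 1807 to 2578 without 1 array. Signs near 0 turned for Pex2 (−0.0021 with median scaling, −0.078 to 0.12 without 1 array), Pex7 (−0.12 to 0.049 without 1 array) and Acot4 (0.054 as the mean of its probe sets). The cause was not tested. Deviations of same-numbered replicates correlated weakly (r = 0.0845, −0.0046 and 0.0425), and those of other pairs had r of −0.0925 to 0.0613. A check on 3 arrays per group cannot settle whether the numbers pair samples, and the main fit left them unpaired. With a replicate block 24 peroxisome genes, 13 other peroxisomal genes and 2455 probe sets passed, and Zc3h10 did not (limma, adjusted p = 0.212).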

Other observations

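Some genes beside a peroxisome gene on the chromosome were lower too, while most such neighbours did not pass. The share of neighbours that passed was not computed, so it cannot be set beside the 6.60% of all genes that passed lower. Only some of the neighbours that passed are named here. They were looked up in the order of the RefSeq gene table and are named after their values were seen. Echdc2, next to Scp2, had a log2 difference of −0.96 ± 0.088 (Zc3h10 shRNA minus scramble), and Podn, on the other side of Scp2, had −0.60 ± 0.090. Pus10, next to Pex13, had −0.62 ± 0.085. Both neighbours of Cat, Elf5 and Abtb2, did not pass, at 0.01 ± 0.10 and −0.03 ± 0.097. Whether neighbours moved together more often than other genes was not tested.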
